A study of Drosophila melanogaster with 18 samples.

Results

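The vacuolar ATPase genes of Drosophila melanogaster were examined in neurons and in a neural cell line in which the RNA-binding protein gene shep (alan shepherd) was knocked down. The genes were taken by a naming rule, as all rows of the deposited count table whose FlyBase identifier has a current symbol beginning with Vha. The rule gave 31 of the 17402 rows, of which 17 encode subunits of the membrane sector V0, 12 encode subunits of the cytosolic sector V1 and 2 encode accessory subunits. The gene name table holds 33 such symbols, and the other 2, Vha44 (subunit C of V1) and VhaAC39-1 (subunit d of V0), were not analysed here. Paralogues were also classed by hand, from background knowledge, as broadly used (15 genes) or as restricted to certain tissues (16 genes). The levels did not always follow these classes. Vha100-1, classed as restricted, had counts in all 18 libraries, and VhaM9.7-a, classed as broadly used, had 0 counts in BG3 cells.

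The vacuolar ATPase is a rotary proton pump. V1 hydrolyses ATP on its A and B subunits and turns a central stalk, and the turning stalk drives a ring of proteolipid c subunits in V0 past subunit a, where protons cross the membrane. The pump acidifies endosomes and lysosomes in all animal cells. In neurons it also sits on synaptic vesicles, where the proton gradient powers the loading of transmitter.

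RNA-seq had been done on 6 groups of 3 libraries each. The pupal shep RNAi group held sorted live neurons of P14 pupae in which elav, a pan-neuronal driver, expressed shep-RNAi together with Dcr (Dicer) and mCD8::GFP. The pupal control group held neurons of the same stage with elav-driven Dcr and mCD8::GFP and no shep-RNAi. The larval shep RNAi and larval control groups had the same 2 genotypes in larvae of the third instar, so that every neuron group carried the driver, Dcr and the membrane GFP. BG3-c2 cells, a line derived from the larval nervous system, received a double-stranded RNA (dsRNA) that targets either shep or, in the control, GFP. The labels do not say whether libraries of a group came from separate animals, sorts or cultures, so the p-values below measure the spread between libraries, which may be technical.

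Total counts per library ran from 7392299 to 12910603 in neurons and from 3141100 to 5081610 in BG3 cells, and each of the 3 shep dsRNA libraries was deeper than each GFP dsRNA library. shep itself was lower in every knockdown, with a log2 fold change of -0.92 in pupal neurons, -1.44 in larval neurons and -1.08 in BG3 cells. The summed level of 5 neuronal markers was 17046 to 21119 CPM (read counts scaled to library size) in pupal neurons and 6181 to 7420 CPM in larval neurons. It was 82.1 to 102 CPM in BG3 cells, where 6 hemocyte markers summed to 2215 to 2727 CPM against at most 13.5 CPM in any neuron library. The line thus had little of these neuronal markers. In bulk RNA, fewer cells of a type and less RNA per cell cannot be told apart, and this holds for every comparison below.

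The genes differed widely in level, as read in TPM, a scale computed here from the counts that corrects for gene length and library total. The V0 proteolipid gene Vha16-1 (FBgn0262736) had the highest level of all Vha genes in each group, at 4886 ± 319 TPM in pupal shep RNAi, 5189 ± 492 TPM in pupal control, 1031 ± 97.3 TPM in larval shep RNAi, 982 ± 60.6 TPM in larval control, 1411 ± 90.3 TPM in BG3 shep dsRNA and 1224 ± 159 TPM in BG3 GFP dsRNA (SD, n = 3 each). Each pump holds several copies of c, which form its ring. The next level belonged to Vha13, subunit G of the peripheral stalk, in pupal neurons and in BG3 cells, and to Vha26, subunit E of the same stalk, in larval neurons. Vha13 had 1544 ± 114 TPM in pupal shep RNAi and 1722 ± 189 TPM in pupal control, and Vha26 had 114.9 ± 10.02 TPM in larval shep RNAi and 129 ± 5.81 TPM in larval control (SD, n = 3 each).

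At the other end, 9 genes had under 10 counts in all 18 libraries together. They were Vha100-3, Vha100-5, Vha16-2, Vha16-3, Vha16-4, Vha16-5, Vha68-3, VhaAC39-2 and VhaM9.7-d, all of them restricted paralogues. Vha16-2, VhaAC39-2 and VhaM9.7-d had no count in any library, which, at 3 counts of 140437101, allows up to 0.0214 CPM over the 18 libraries (counting error only). Another 4 genes, Vha100-4, Vha36-2, VhaPPA1-2 and Vha14-2, had too few counts to enter any test. The remaining 18 genes were tested in neurons: 7 of V0, 9 of V1 and both accessory genes.

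**Figure D1:**
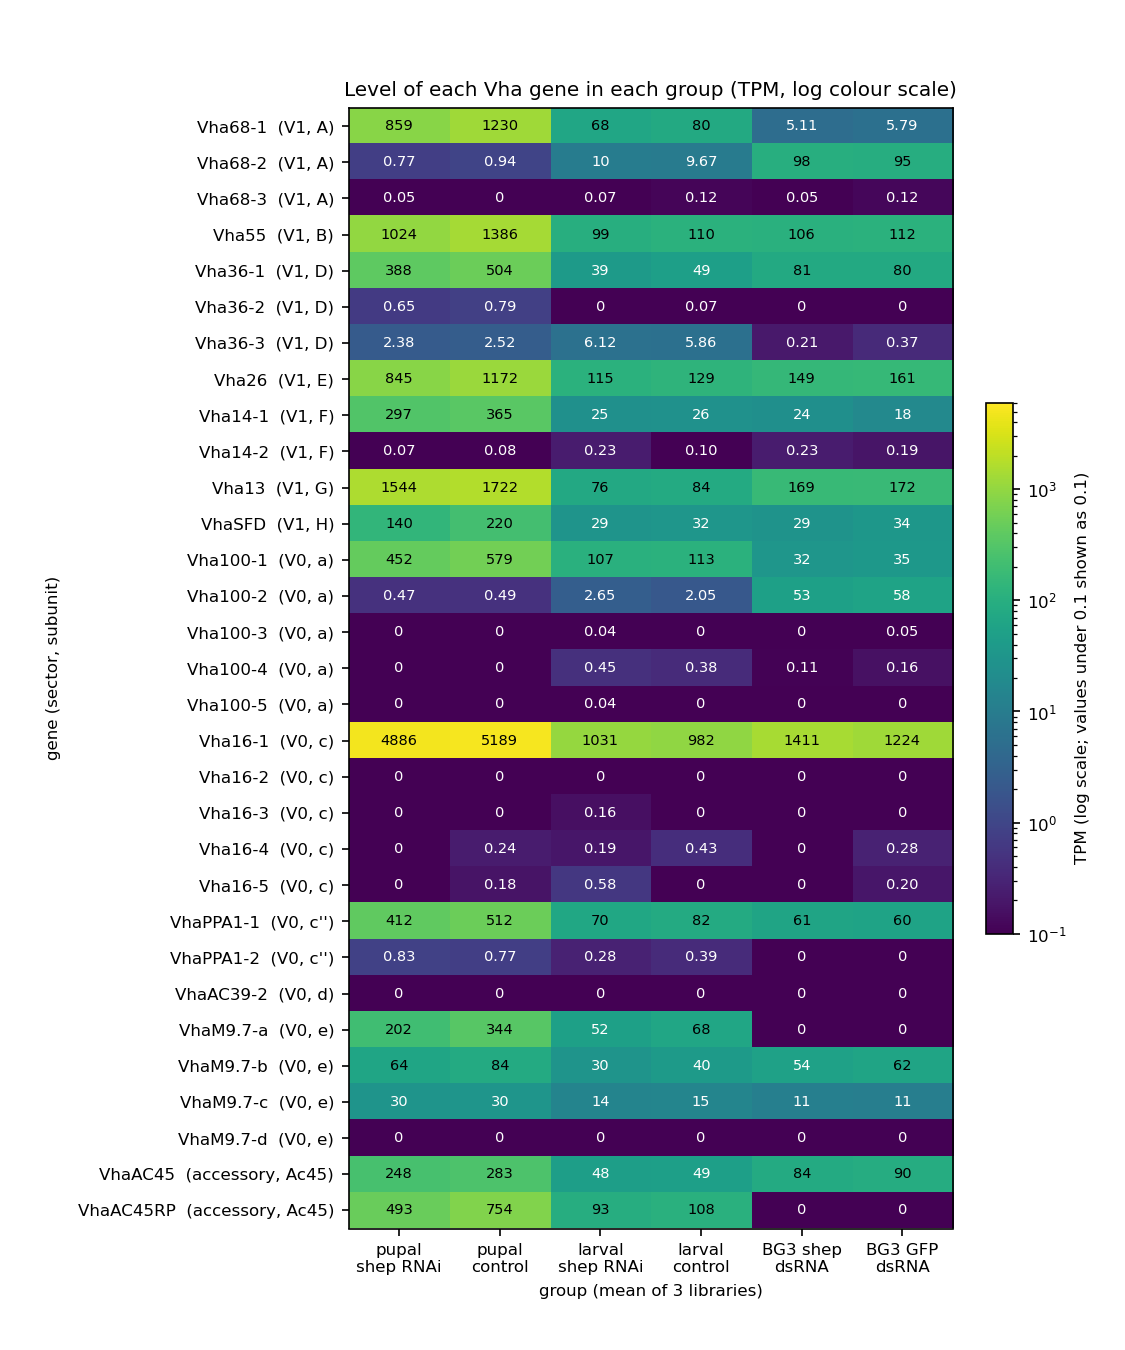
Mean level of the 31 Vha genes in the 6 groups, in TPM (3 libraries each), with genes down the page by sector and subunit, groups across, and colour on a log scale. Vha16-1 is the brightest row, at 4886 TPM in pupal shep RNAi and 5189 TPM in pupal control; Vha68-2 and Vha100-2 are brighter in BG3 cells than in neurons, and VhaM9.7-a and VhaAC45RP are at 0 in BG3 cells.

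The pump genes as a set were lower in pupal neurons with shep RNAi. Their share of all counts was 0.698% to 0.798% in the 3 shep RNAi libraries and 0.940% to 0.995% in the 3 control libraries. Of the 18 genes tested with edgeR's quasi-likelihood test and Benjamini-Hochberg adjustment over all 8784 genes of the neuron fit, 11 were called lower at an adjusted p under 0.05 and 0 were called higher, where 4.17% of all genes tested were called lower. All 18 fold changes were negative, against 48.9% of all genes tested. The median log2 fold change was -0.40, against 0.01 over all genes tested. Of the 18, Vha100-2, Vha68-2 and Vha36-3 had at most 25 counts in either pupal group. They passed the low-count filter through the larval libraries, where they are higher, and their pupal signs carry little weight. The 11 genes were spread over the pump, with 6 of 9 tested genes of V1, 4 of 7 of V0 and 1 of 2 accessory genes. By class, 9 of 15 tested broadly used genes and 2 of 3 tested restricted genes were called lower.

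Among the V1 genes, VhaSFD moved most. VhaSFD (FBgn0027779, dm6 2L:16722883-16727826) encodes subunit H, which regulates ATP hydrolysis. It had 136, 145 and 129 CPM in the 3 pupal shep RNAi libraries, against 248, 216 and 209 CPM in the 3 pupal control libraries (log2 fold change -0.71, SE 0.08, adjusted p = 4.95e-06 by edgeR). Every shep RNAi library was below every control library.

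The catalytic head followed. Vha68-1 (FBgn0265262, dm6 2L:13000770-13004107), the main subunit A gene of these neurons, had 723, 839.7 and 819 CPM in pupal shep RNAi, against 1324, 1096 and 1138 CPM in pupal control (log2 fold change -0.58, SE 0.09, adjusted p = 1.44e-04 by edgeR). Vha55 (FBgn0005671, dm6 3R:12623762-12627829), the only subunit B gene, had 950.1, 1017 and 986 CPM in pupal shep RNAi, against 1448, 1339 and 1386 CPM in pupal control (log2 fold change -0.50, SE 0.08, adjusted p = 1.73e-04 by edgeR). For both genes the 2 groups did not overlap, and the 3 shep RNAi libraries lay close together.

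The stalk genes were less uniform. Vha26 (FBgn0283535, dm6 3R:5591763-5595356), subunit E, had 787, 883 and 891 CPM in pupal shep RNAi, against 1318, 1128 and 1257 CPM in pupal control (log2 fold change -0.53, SE 0.09, adjusted p = 3.47e-04 by edgeR). Vha36-1 and Vha14-1, subunits D and F of the central stalk, were also called lower, with log2 fold changes of -0.44 and -0.36 (edgeR adjusted p = 0.00657 and 0.0306). Vha13, subunit G and the partner of Vha26 in the peripheral stalk, was not called. It had 533, 484 and 488 CPM in pupal shep RNAi, against 523, 677 and 560.4 CPM in pupal control (log2 fold change -0.23, SE 0.09, adjusted p = 0.119 by edgeR), and the groups overlapped.

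In V0 the proteolipid genes differed in their calls, and the difference between them was not tested. Vha16-1, the c subunit, had 4700.2, 5449.8 and 5421 CPM in pupal shep RNAi, against 5049, 6236 and 6009 CPM in pupal control (log2 fold change -0.15, SE 0.11, adjusted p = 0.442 by edgeR), and the groups overlapped. VhaPPA1-1, the related c'' proteolipid, was called lower, with 200.4, 189 and 187 CPM in pupal shep RNAi, against 245, 248 and 255 CPM in pupal control (log2 fold change -0.38, SE 0.07, adjusted p = 0.00189 by edgeR). Vha100-1 (FBgn0028671, dm6 3R:29131193-29137980), the neuronal subunit a that acts on synaptic vesicles and in neuronal degradation, had 505, 543 and 490.3 CPM in pupal shep RNAi, against 769, 629 and 658 CPM in pupal control (log2 fold change -0.42, SE 0.08, adjusted p = 0.00236 by edgeR). Its exons share 11 bases with the gene Alg13 on the other strand, and no other tested Vha gene shares exonic bases with another gene. The highest Vha100-1 value with shep RNAi was below the lowest control value.

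The small subunit e has 4 genes, and they differed. VhaM9.7-a (FBgn0035521, dm6 3L:4262705-4263464) had the largest fall of all Vha genes tested in pupal neurons, at 41.9, 54.6 and 51.9 CPM in shep RNAi, against 87.6, 98.3 and 78.6 CPM in control (log2 fold change -0.84, SE 0.11, adjusted p = 3.02e-05 by edgeR). VhaM9.7-b was called lower too, with 27.8, 29.5 and 23.6 CPM in pupal shep RNAi, against 39.3, 37.1 and 33.9 CPM in pupal control (log2 fold change -0.44, SE 0.12, adjusted p = 0.0267 by edgeR). VhaM9.7-c had 9.73, 10.4 and 5.82 CPM in pupal shep RNAi, against 10.4, 8.11 and 9.34 CPM in pupal control, and the groups overlapped (adjusted p = 0.874 by edgeR). VhaM9.7-d had no count.

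Of the accessory genes, VhaAC45RP (FBgn0051030, dm6 3R:30164692-30166419), a paralogue of the Ac45 subunit gene, had 273, 305 and 274 CPM in pupal shep RNAi, against 485, 441 and 435 CPM in pupal control (log2 fold change -0.68, SE 0.07, adjusted p = 2.45e-06 by edgeR). VhaAC45 itself had 163, 186 and 168 CPM in pupal shep RNAi, against 231, 188 and 196 CPM in pupal control. The VhaAC45 groups did not overlap, but the gene was not called (log2 fold change -0.25, SE 0.09, adjusted p = 0.0895 by edgeR). ATP6AP2, a further accessory subunit whose former symbol VhaM8.9 is outside the naming rule, was also called lower, with a log2 fold change of -0.61 (edgeR adjusted p = 3.65e-05).

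Without pupal shep RNAi replicate 1 the count was 8 of 18, where Vha36-1, Vha14-1 and VhaM9.7-b were no longer called. Glial markers moved the same way in these libraries: 6 genes summed to 646 to 840 CPM in pupal shep RNAi and to 862 to 959 CPM in pupal control. Most of it came from the glutamate transporter gene Eaat1. All 5 glial genes tested had negative fold changes, with a median of -0.44 on the log2 scale. Of these, 0 were called by edgeR (1 at an unadjusted p under 0.05). Of the markers of trachea and epithelia, 3 genes summed to 23.1 to 26.4 CPM in pupal shep RNAi and to 15.4 to 18.4 CPM in pupal control. Of 2 tested, 1 was called higher, crb, where 306 of all 8784 genes tested were called higher. The muscle markers summed to 18.6 to 28.9 CPM in pupal shep RNAi and to 17.9 to 25.7 CPM in pupal control. Of 5 tested, 1 was called higher, sls, and 2 had negative fold changes. The 4 neuroblast markers summed to 6.55 to 9.18 CPM in pupal shep RNAi and to 7.60 to 11.1 CPM in pupal control, with all 4 fold changes negative and 0 called by edgeR (0 at an unadjusted p under 0.05). The 5 neuronal markers overlapped between the groups, and those of fat body, midgut, testis and photoreceptors summed to at most 3.07 CPM in any neuron library. Those of Malpighian tubules summed to 0.781 to 2.78 CPM in pupal shep RNAi and 1.74 to 2.35 CPM in pupal control. The part of these cell types in the fall of the pump genes was not tested.

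**Figure D2:**
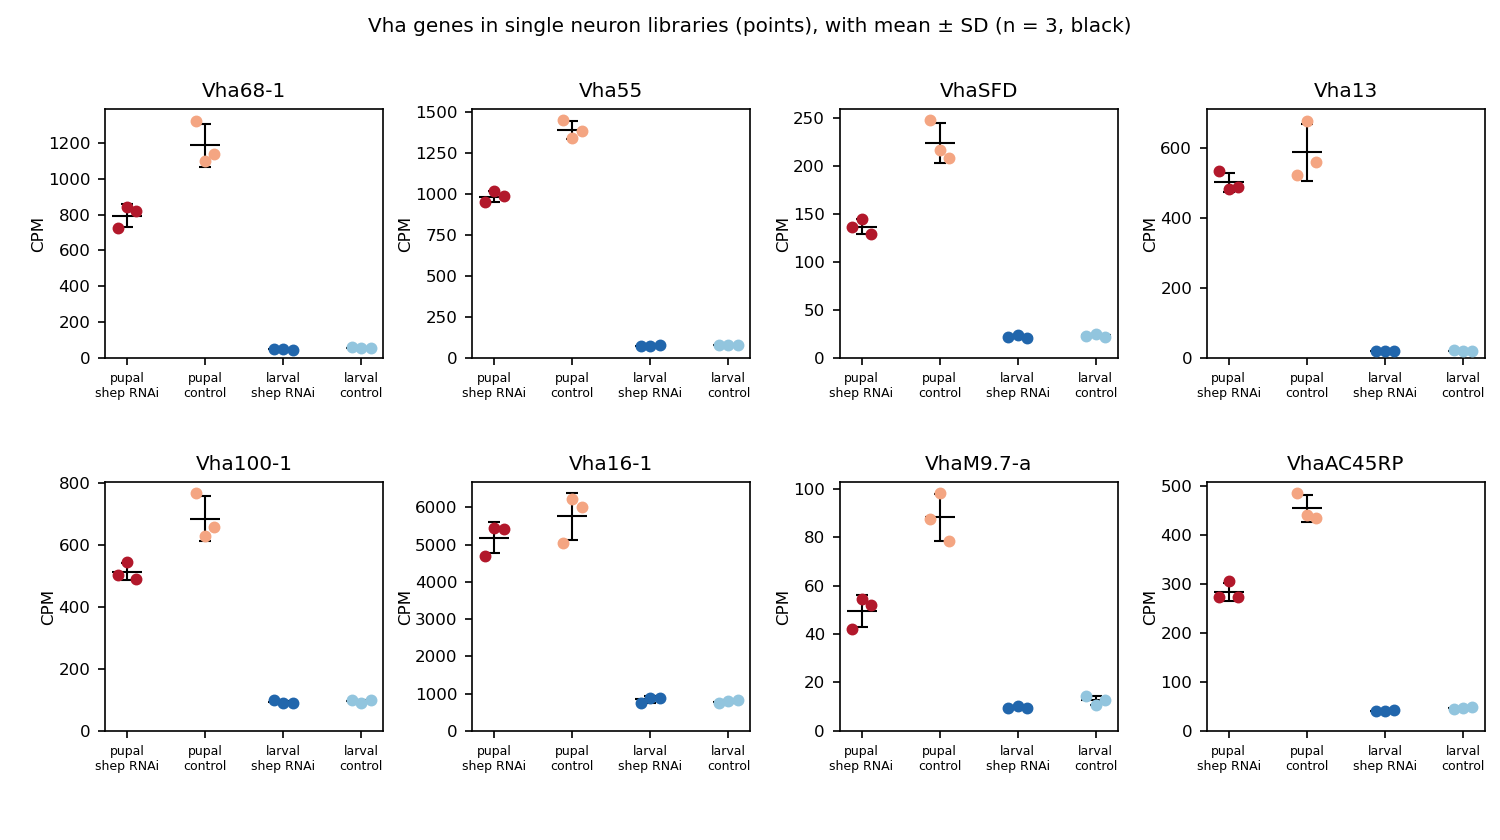
CPM (y axis, from 0) of 8 Vha genes in each neuron library (points), by group (x axis), with mean ± SD in black (n = 3). The pupal shep RNAi points lie below all pupal control points for Vha68-1, Vha55, VhaSFD, Vha100-1, VhaM9.7-a and VhaAC45RP, and overlap them for Vha13 and Vha16-1; the larval groups lie far lower.

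In larval neurons no pump gene passed the test. Of 18 genes tested, 0 were called in either direction by edgeR, DESeq2 or limma-voom, where edgeR called 0.364% of all genes tested. At an unadjusted p under 0.05 there were 6 lower and 0 higher, against 4.34% of all genes lower at that level. The 6 were VhaM9.7-b, VhaM9.7-a, VhaAC45RP, Vha36-1, VhaPPA1-1 and Vha68-1. The median log2 fold change was -0.11 over the 18 genes and -0.0045 over all genes. Of the 18, 14 were negative, against 51.3% of all genes.

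VhaSFD had 21.4, 23.6 and 20.4 CPM in larval shep RNAi, against 23.2, 25.0 and 22.2 CPM in larval control (log2 fold change -0.10, SE 0.10, adjusted p = 0.853 by edgeR). VhaAC45RP had 40.6, 40.8 and 42.1 CPM in larval shep RNAi, against 45.3, 46.8 and 48.5 CPM in larval control (log2 fold change -0.19, SE 0.08, adjusted p = 0.489 by edgeR). The VhaSFD groups overlapped and the VhaAC45RP groups did not. VhaM9.7-b, which encodes subunit e, had the largest negative larval value, with 7.99, 11.4 and 9.74 CPM in larval shep RNAi, against 12.1, 12.7 and 13.3 CPM in larval control (log2 fold change -0.40, SE 0.13, adjusted p = 0.289 by edgeR).

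The difference between the stages in their response to shep RNAi was tested as an interaction. It was negative for all 18 genes, meaning a lower fold change in pupal than in larval neurons, against 49.0% of all genes. That count includes Vha100-2, Vha68-2 and Vha36-3, which had few counts in pupal neurons. The median was -0.33, against 0.01 over all genes. edgeR called 2 of the 18, VhaSFD (log2 difference -0.61, SE 0.13, adjusted p = 0.0235) and VhaAC45RP (log2 difference -0.49, SE 0.11, adjusted p = 0.0459), where 0.262% of all genes were called lower. At an unadjusted p under 0.05 there were 7 lower and 0 higher, against 5.36% of all genes lower. The replicate block ended the VhaAC45RP call (adjusted p = 0.071) and kept that of VhaSFD, and with libraries scaled by their totals alone, without TMM factors, edgeR called neither (7 at an unadjusted p under 0.05). Both calls also depended on single libraries, and the count was 0 without pupal shep RNAi replicate 1 or 3, larval shep RNAi replicate 1 or 2, or larval control replicate 3, and 1 without larval shep RNAi replicate 3, pupal control replicate 1 or 3, or larval control replicate 2. DESeq2 called 5 of the 18, adding Vha55, Vha26 and Vha100-1 (DESeq2 adjusted p = 0.00106, 0.0419 and 0.0492). None of these additions was called by edgeR or in any other alternative. The remaining pump genes that were called in pupal and not in larval neurons are not shown to differ between the stages.

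BG3 cells gave a knockdown with its own controls. Of 15 Vha genes tested, 4 were called lower by edgeR and 0 higher, where 2.07% of the 6816 genes tested were called lower. The median log2 fold change was -0.26 over the 15 genes and -0.01 over all genes. Of the 15, 13 were negative, against 53.0% of all genes. Read in TPM, 9 of the 15 were lower in shep dsRNA and 6 higher, with a median log2 ratio of -0.09 against 0.16 over all genes, and the 4 called genes were among the lower ones. The 4 genes encode subunits H, B, E and e, and all 4 were also among the 11 called lower in pupal neurons. In pupal neurons 61.1% of the 18 Vha genes tested were called lower, and whether the overlap exceeds that share was not tested. Of the 11, VhaM9.7-a and VhaAC45RP were not tested in BG3 cells. Whether the knockdowns share a response was not tested.

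VhaSFD, subunit H, had 47.9, 47.2 and 52.2 CPM in BG3 shep dsRNA, against 69.3, 66.2 and 60.1 CPM in BG3 GFP dsRNA (log2 fold change -0.41, SE 0.10, adjusted p = 0.0206 by edgeR). Vha26, subunit E, had 281, 254 and 255 CPM in BG3 shep dsRNA, against 321, 306 and 334 CPM in BG3 GFP dsRNA (log2 fold change -0.28, SE 0.07, adjusted p = 0.0153 by edgeR). Vha55, subunit B, had 175, 171 and 187 CPM in BG3 shep dsRNA, against 216, 206 and 216 CPM in BG3 GFP dsRNA (log2 fold change -0.26, SE 0.07, adjusted p = 0.0279 by edgeR). In all 3 genes each shep dsRNA library was below each GFP dsRNA library.

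VhaM9.7-b, subunit e, had 41.0, 40.9 and 37.5 CPM in BG3 shep dsRNA, against 54.9, 48.7 and 51.1 CPM in BG3 GFP dsRNA (log2 fold change -0.37, SE 0.11, adjusted p = 0.0423 by edgeR), again without overlap. Vha16-1 had 2663, 2561 and 2632 CPM in BG3 shep dsRNA, against 2555, 2574 and 2573 CPM in BG3 GFP dsRNA (log2 fold change 0.03, SE 0.07, adjusted p = 0.868 by edgeR), and the groups overlapped. The 2 subunit a genes were not called, at -0.30 for Vha100-1 and -0.30 for Vha100-2 on the log2 scale (edgeR adjusted p = 0.0931 and 0.0536). ATP6AP2 had a log2 fold change of -0.33 (edgeR adjusted p = 0.0818). The 4 calls depended on the fit. DESeq2 called 2, without VhaM9.7-b and Vha55, and the fit of all 18 libraries called VhaSFD alone. edgeR with library totals alone called 0 (6 at an unadjusted p under 0.05), and the replicate block called 7. The calls also depended on single libraries, and the count was 0 without GFP dsRNA replicate 1 or shep dsRNA replicate 2, 1 without GFP dsRNA replicate 3 or shep dsRNA replicate 1, and 2 without shep dsRNA replicate 3. Glial markers summed to 521 to 548 CPM in BG3 shep dsRNA and to 450 to 499.9 CPM in BG3 GFP dsRNA. Hemocyte markers summed to 2215 to 2624 CPM in shep dsRNA and 2476 to 2727 CPM in GFP dsRNA, where 1 of 5 tested, vkg, was called lower. Muscle markers summed to 378 to 451 CPM in shep dsRNA and to 353 to 377 CPM in GFP dsRNA, with 0 of 3 called by edgeR (1 at an unadjusted p under 0.05). The part of these markers, and of the greater depth of the shep dsRNA libraries, was not tested.

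**Figure D3:**
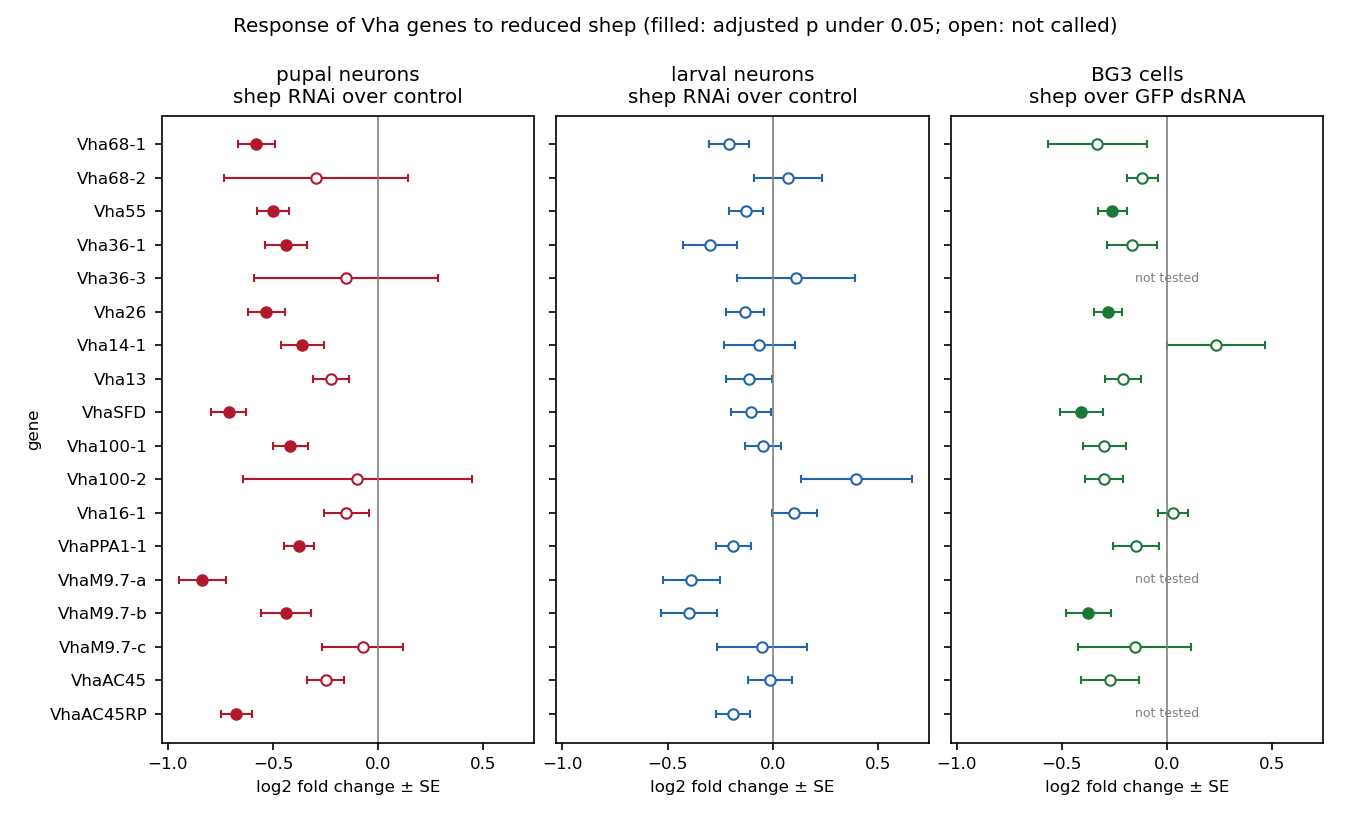
Log2 fold change ± SE (x axis) of each tested Vha gene (y axis, by sector) in shep RNAi over control neurons of pupae and larvae and in shep over GFP dsRNA BG3 cells; filled points passed an adjusted p under 0.05. All 11 filled points of the pupal panel and all 4 of the BG3 panel lie below 0, the larval panel has 0 filled points, and Vha16-1 is open in all panels.

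The proteolipid gene Vha16-1 was not called in any of the 3 knockdowns, and its TPM relative to the single subunit B gene Vha55 can be set side by side across groups. The ratio was 4.48 to 4.98 in pupal shep RNAi and 3.16 to 4.22 in pupal control. It was 9.09 to 11.6 in larval shep RNAi and 8.28 to 9.39 in larval control, and 12.8 to 13.7 in BG3 shep dsRNA and 10.7 to 11.3 in BG3 GFP dsRNA. The pupal and the BG3 pairs did not overlap and the larval pair did. Vha55 itself was called lower in pupal neurons and in BG3 cells and not in larval neurons, so the ratio in part restates those values. The ratio was chosen after the values were seen and is given as a description.

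Most pump genes were higher in pupal than in larval neurons. In pupal control over larval control neurons, 15 of 18 genes tested were called higher and 2 lower by edgeR, where 39.0% of all genes were called higher and 44.3% lower. The median log2 fold change was 3.06 over the 18 genes, against -0.16 over all genes. With library totals alone these medians were 2.31 and -0.91, and 15 genes were again called higher. Summed over all 31 genes the level was 14379.5 ± 157 TPM in pupal control and 1988 ± 64.1 TPM in larval control (SD, n = 3 each). The V1 sum was 6603 ± 309 TPM in pupal control and 526 ± 20.4 TPM in larval control, and the V0 sum was 6740.2 ± 413 TPM in pupal control and 1304 ± 70.3 TPM in larval control.

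The largest rises were in V1. Vha13, subunit G, had 523, 677 and 560.4 CPM in pupal control, against 22.04, 20.6 and 18.7 CPM in larval control (log2 fold change 4.84, SE 0.11, adjusted p = 1.42e-22 by edgeR). Vha68-1, subunit A, had 1324, 1096 and 1138 CPM in pupal control, against 58.9, 53.4 and 54.6 CPM in larval control (log2 fold change 4.41, SE 0.10, adjusted p = 3.32e-22 by edgeR). Vha14-1 (F), Vha55 (B), Vha36-1 (D), Vha26 (E) and VhaSFD (H) rose by 4.27, 4.12, 3.82, 3.66 and 3.26 on the log2 scale. The median over the 9 tested V1 genes was 3.82.

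The median over the 7 tested V0 genes was 2.80, and the difference between the sectors was not tested. Vha16-1 rose by 2.88, VhaPPA1-1 by 3.13, Vha100-1 by 2.84 and VhaM9.7-a by 2.80 on the log2 scale. The other e genes rose by 1.53 for VhaM9.7-b and 1.46 for VhaM9.7-c, the smallest of the 15 rises. VhaAC45 and VhaAC45RP rose by 2.99 and 3.27, and ATP6AP2 by 2.92.

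A pair of genes went the other way. Vha68-2, a second subunit A gene, had 0.853, 1.14 and 0.824 CPM in pupal control, against 7.42, 6.80 and 6.52 CPM in larval control (log2 fold change -2.87, SE 0.26, adjusted p = 3.21e-10 by edgeR). Vha100-2, a second subunit a gene, had 0.711, 0.427 and 0.549 CPM in pupal control, against 1.61, 1.72 and 1.81 CPM in larval control (log2 fold change -1.58, SE 0.39, adjusted p = 6.93e-04 by edgeR). Neither pair of groups overlapped, but both genes had at most 8 counts in a pupal library and passed the low-count filter through the larval libraries, where they are higher. Vha36-3, a restricted subunit D gene, was not called (log2 fold change -0.73, SE 0.35, adjusted p = 0.0596 by edgeR). With library totals alone it was called lower, at -1.47 on the log2 scale.

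Markers of other cells moved with the stage too. The 6 glial markers summed to 862 to 959 CPM in pupal control and to 128 to 159 CPM in larval control, with 2 of 5 tested called higher and 2 lower. The 5 muscle markers summed to 17.9 to 25.7 CPM in pupal control and to 33.2 to 47.6 CPM in larval control, with 4 of 5 called lower. The 4 neuroblast markers summed to 7.60 to 11.1 CPM in pupal control and to 256 to 372 CPM in larval control. Those of Malpighian tubules summed to 1.74 to 2.35 CPM in pupal control and to 18.5 to 23.8 CPM in larval control, with the 1 gene tested called lower. Those of trachea and epithelia summed to 15.4 to 18.4 CPM in pupal control and to 23.1 to 25.5 CPM in larval control, with 1 called higher and 1 lower. Their part in the stage differences was not tested.

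In BG3 cells the higher paralogues of subunits A and a were not those of larval neurons. In BG3 GFP dsRNA over larval control neurons, in a fit of all 18 libraries, 11 of 18 genes were called higher and 5 lower by edgeR, where 37.0% of all 9439 genes were called higher and 45.4% lower. The 2 scales differ here: the median over all genes was -0.23 for the edgeR log2 fold change and -0.96 for the log2 ratio of mean TPM, so that a gene can be higher on one and level or lower on the other. Vha100-2 had 94.3, 86.7 and 115.3 CPM in BG3 GFP dsRNA, against 1.78, 1.94 and 2.06 CPM in larval control (log2 fold change 5.68, SE 0.14, adjusted p = 2.29e-28 by edgeR). Vha68-2 had 135, 134 and 149 CPM in BG3 GFP dsRNA, against 8.20, 7.66 and 7.41 CPM in larval control (log2 fold change 4.16, SE 0.11, adjusted p = 4.41e-28 by edgeR). Both genes were far higher in each BG3 library than in any larval control library.

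The paralogues Vha68-1 and Vha100-1 were lower in the line. Vha68-1 had 9.26, 5.58 and 9.53 CPM in BG3 GFP dsRNA, against 65.0, 60.1 and 62.1 CPM in larval control (log2 fold change -2.93, SE 0.15, adjusted p = 2.16e-19 by edgeR). Vha100-1 had 70.6, 59.5 and 54.0 CPM in BG3 GFP dsRNA, against 108, 102 and 113 CPM in larval control (log2 fold change -0.81, SE 0.10, adjusted p = 2.97e-09 by edgeR). For both genes the 2 groups did not overlap.

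VhaAC45RP and VhaM9.7-a had 0 counts in all 6 BG3 libraries. Against a limit of 3 counts over the 3 GFP dsRNA libraries, VhaAC45RP was at least 207-fold lower, and VhaM9.7-a at least 56.5-fold lower, than in larval control. These 2 genes and Vha36-3 passed the filter through the neuron libraries.

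The other 9 genes called higher in BG3 cells did not all keep that direction in TPM. For Vha13, VhaAC45, Vha36-1, VhaM9.7-b, Vha26 and Vha16-1 the edgeR log2 fold changes were 1.93, 1.73, 1.58, 1.51, 1.20 and 1.20, and their mean TPM was higher in BG3 GFP dsRNA too. Vha13, for example, had 172 TPM in BG3 GFP dsRNA and 83.7 TPM in larval control, and Vha16-1 had 1224 TPM in BG3 GFP dsRNA and 982 TPM in larval control. Vha55 and VhaSFD, with edgeR log2 fold changes of 0.90 and 0.96, were nearly level in TPM. Vha55 had 112 ± 17.3 TPM in BG3 GFP dsRNA and 110.4 ± 1.72 TPM in larval control, and VhaSFD had 33.7 ± 3.76 TPM in BG3 GFP dsRNA and 32.0 ± 1.45 TPM in larval control (SD, n = 3 each). VhaPPA1-1, called higher at 0.44, was lower in TPM, with 60.2 ± 8.17 TPM in BG3 GFP dsRNA and 81.7 ± 3.47 TPM in larval control. The sign also differed between the scales for VhaM9.7-c and Vha14-1, which were not called. Vha100-2, Vha68-2, Vha68-1 and Vha100-1 kept their direction in TPM. Cell source, sorting and library depth all differ between these groups, and their parts cannot be told apart.

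The same contrast can be read as the share of each subunit's summed TPM that one paralogue held. For subunit A, Vha68-1 held 99.9, 99.9 and 99.9% in pupal control, 89.1, 88.9 and 89.4% in larval control and 6.59, 4.11 and 6.17% in BG3 GFP dsRNA. Vha68-2 held nearly all of the rest. The shares were separate in all 3 cell sources, with little spread within each.

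For subunit a, Vha100-1 held 99.9% ± 0.0127 in pupal control, 97.9% ± 0.348 in larval control and 37.9% ± 5.68 in BG3 GFP dsRNA (SD, n = 3 each). For subunit D, Vha36-1 held 99.3% ± 0.0133 in pupal control, 89.2% ± 2.06 in larval control and 99.6% ± 0.427 in BG3 GFP dsRNA, and Vha36-3 held most of the larval remainder. For subunit e, VhaM9.7-a held 75.0% ± 2.21 in pupal control, 55.0% ± 3.47 in larval control and 0 in BG3 cells. VhaAC45RP held 72.8% ± 1.08 of the Ac45 pair in pupal control and 68.8% ± 3.13 in larval control, where the groups overlapped, and 0 in BG3 cells.

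With shep knocked down, the shares of a few paralogues did not overlap those in the controls. VhaAC45RP held 66.8, 66.5 and 66.2% of its pair in pupal shep RNAi, against 71.7, 73.8 and 72.8% in pupal control, with no overlap. Vha68-1 held 88.1, 85.8 and 87.3% in larval shep RNAi, against 89.1, 88.9 and 89.4% in larval control, also with no overlap. Vha100-1 held 97.5, 97.1 and 96.7% in larval shep RNAi, against 98.3, 97.7 and 97.7% in larval control, again with no overlap. The other knockdown shares that were tested overlapped between the groups. In an exact two-sided permutation test of 3 against 3 libraries the smallest possible p is 0.1, which any groups without overlap reach. The differences without overlap thus had this p (0.192 after Benjamini-Hochberg adjustment over the 23 share tests), and no share difference could pass the threshold.

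**Figure D4:**
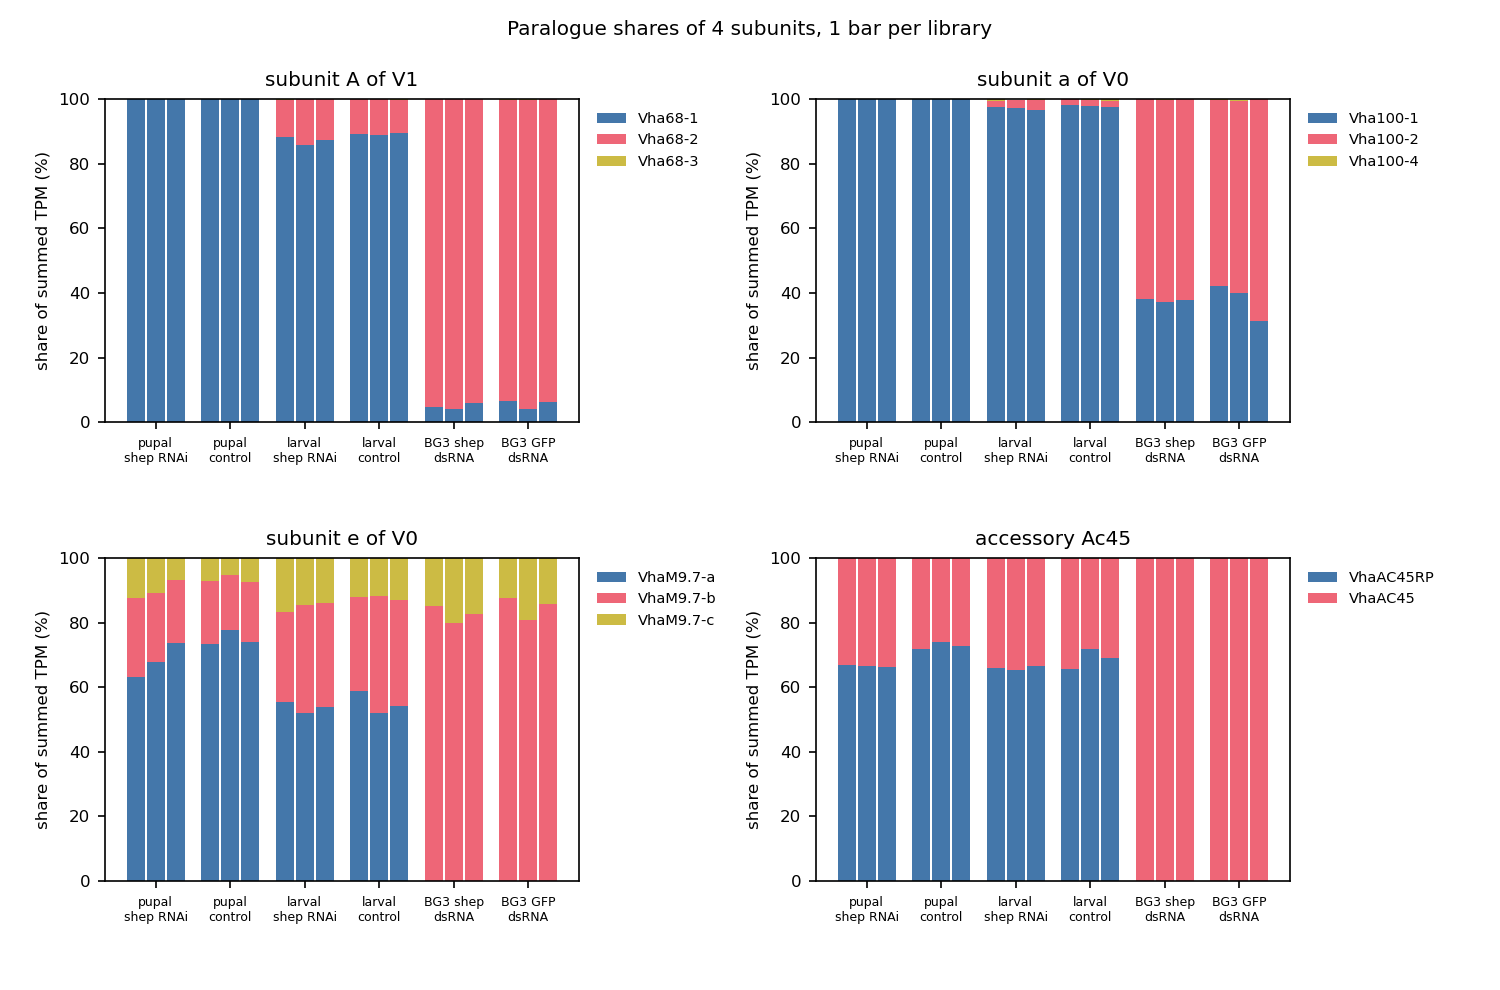
Share of a subunit's summed TPM (y axis, percent) held by each paralogue, 1 stacked bar per library, by group (x axis), for subunits A, a and e and the Ac45 pair. Vha68-1 fills 99.9% of the pupal control bars, 89.1% of the larval control bars and 5.63% of the BG3 GFP dsRNA bars on average; VhaM9.7-a and VhaAC45RP are missing from the BG3 bars.

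Some paralogues lie side by side in dm6. Vha68-2 and Vha68-3 are 178 bases apart on 2L, and Vha68-1 lies 19476 bases beyond Vha68-3 with 1 gene between. Vha100-4 and Vha100-2 are 517 bases apart on 3R. These neighbours differed in level, as Vha68-2 had 94.7 TPM and Vha68-3 0.124 TPM in BG3 GFP dsRNA, and Vha100-2 had 57.9 TPM and Vha100-4 0.163 TPM in the same cells. No source used here says how reads that match several paralogues were counted, and the split of counts between near-identical stretches of paralogues is uncertain.

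Other genes that work with the pump were taken from 4 lists. Of 5 vesicular transmitter transporter genes, whose proteins use the pump's proton gradient, 3 were called lower in pupal shep RNAi over control, against the 4.17% of all genes. VGlut (glutamate) had 656 ± 34.5 CPM in pupal shep RNAi and 1031 ± 95.9 CPM in pupal control (SD, n = 3 each). VAChT (acetylcholine) had 2025 ± 78.9 CPM in pupal shep RNAi and 3005 ± 101 CPM in pupal control. VGAT (GABA) had 212 ± 13.7 CPM in pupal shep RNAi and 284 ± 20.6 CPM in pupal control. Their log2 fold changes were -0.65, -0.57 and -0.42. Of 10 tested genes of pump assembly and regulation, 1 was called lower (the same 4.17% of all genes), Rbcn-3A, which encodes a rabconnectin that controls assembly of V1 with V0 (log2 fold change -0.37, SE 0.08, adjusted p = 0.00732 by edgeR).

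Of 12 tested lysosomal genes 1 was called lower in pupal neurons, against 4.17% of all genes. It was Npc2a, which encodes a sterol-binding protein of the lysosome (log2 fold change -0.77, SE 0.19, adjusted p = 0.0116 by edgeR), and of 3 endosomal chloride and proton exchanger genes 0 were called (1 at an unadjusted p under 0.05). In larval neurons 0 genes of these lists were called by edgeR. At an unadjusted p under 0.05, 2 transporter genes were lower and 1 lysosomal gene was higher. Of all 8784 genes, 381 were lower and 382 higher at that level. In BG3 cells 4 of 13 lysosomal genes were called lower, against 2.07% of all genes, which were cathD, Hexo2, Sap-r and Lamp1 (log2 fold changes -0.42, -0.35, -0.35 and -0.24), and of 10 assembly genes 0 were called by edgeR (3 at an unadjusted p under 0.05). The lysosomal median in BG3 cells was -0.25 on the log2 scale, near the -0.26 of the Vha genes. The calls in these lists were not checked in the alternative fits, with libraries left out or in TPM.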

How the data were processed

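Total RNA of 18 libraries (Ovation kit, per the labels' protocols) was processed with cutadapt 1.10, HISAT2 2.0.4, featureCounts 1.5.0-p3 and build dm6, per the submitters' processing notes. The deposited table holds raw read counts per gene by the authors. Strand and multi-mapping settings are not given in the sources used here.

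Symbols, and so the Vha genes, came from the gene name table, and exonic lengths from Ensembl release 115 (dm6 coordinates). In each, 17210 of 17402 identifiers were matched. Tests were run with edgeR 4.0.16 (filterByExpr, TMM, robust quasi-likelihood, Benjamini-Hochberg) in R 4.3.3: 1 fit of the 12 neuron libraries, 1 of the 6 BG3 libraries and 1 of all 18. CPM are TMM-scaled within a fit, so values differ between fits. TPM used summed exonic length. DESeq2 1.42.0, limma 3.58.1, other scalings and filters (library totals alone was added after seeing the data), a replicate block, a length correction and leaving out each library were alternatives. Scripts were tested on simulated data.

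The Vha genes, the gene lists (35 pathway entries, 49 of 51 marker entries found) and the tests were chosen with earlier results of these data known. All Vha genes could be named; from the pathway lists, those called in a knockdown. Counting noise sets the precision of low genes. No sequences are printed.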

Additional observations from a re-analysis of the deposited data

Results flagged for a closer look

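For VhaSFD, subunit H of V1, the shep RNAi response differed between pupal and larval neurons: the pupal fold change was lower than the larval one by a log2 difference of -0.61 (SE 0.13, edgeR adjusted p = 0.0235). For VhaAC45RP, an accessory subunit gene, the log2 difference was -0.49 (SE 0.11, edgeR adjusted p = 0.0459). Each fit that left out 1 library kept both differences negative, but VhaSFD was called in 7 and VhaAC45RP in 3 of the 12 such fits. The replicate block ended the VhaAC45RP call, and scaling by library totals alone ended both.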

How the results depend on the processing

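The pupal count of lower Vha genes was 11 and ran from 8 to 12 over all alternatives, the larval count was 0 under all of them, the stage count was 17 to 19 of those tested (more genes entered without a filter), and the count in BG3 over larval control was 16 or 17. VhaSFD, VhaAC45RP, VhaM9.7-a, Vha68-1, Vha55, Vha26, Vha100-1 and VhaPPA1-1 were called lower in pupal neurons under all 15 alternatives. VhaM9.7-b and Vha14-1 were not called with the gene length trend removed. The count for the pupal minus larval difference was 2, against 5 with DESeq2 and 1 with the replicate block, and 0 to 2 with 1 library left out. The BG3 count was 4, against 2 with DESeq2, 7 with the replicate block and 1 in the fit of all 18 libraries, and 0 to 5 with 1 library left out; the cause was not tested. Replicate numbers were not shown to pair the libraries. Same-numbered libraries of compared groups had correlations of their deviations from -0.18 to 0.19, with a pair under 0.1 in every comparison. Each BG3 shep dsRNA library and each pupal control library correlated best with its own number, so pairing was not settled for these comparisons. The block changed no other count. Scaling by library totals alone, without TMM factors, was chosen after seeing the data: it gave 0 calls in the difference and 0 in BG3 cells (edgeR; 7 and 6 at an unadjusted p under 0.05) and left the other counts within 1.5 times. Among the genes called in a fit of a comparison, none changed sign in another; in TPM, signs differed for VhaPPA1-1, VhaM9.7-c and Vha14-1 in BG3 over larval control, and for VhaPPA1-1, VhaM9.7-c, Vha68-2 and Vha36-1 in the BG3 knockdown. The pupal over larval difference in the Vha68-1 share was 10.8 percentage points, against 11.4 with the length of the longest transcript and 11.1 with raw counts. Removing the length trend gave a stage median of -0.05 over all genes, against -0.16 without it, and of 3.40 over the Vha genes, against 3.06. Genes with few counts, such as Vha68-2 and Vha100-2 in pupal neurons, are limited by depth.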
